A study of Mus musculus with 20 samples.

Results

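Cadherins and immunoglobulin-type adhesion molecules that bear on the layering of the retina were followed across the layers of the mouse retina. The members are the genes whose array probe set carries a single symbol for a numbered cadherin (Cdh), a numbered protocadherin (Pcdh), a contactin (Cntn1 to Cntn6), a sidekick (Sdk1, Sdk2), Dscam or Dscaml1. The rule found 44 such genes, measured by 48 probe sets, among 19938 genes with a single symbol. It uses names and no measured value, so it also takes in family members best known from other tissues, such as the muscle cadherin Cdh15 and the kidney cadherin Cdh16.

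RNA was measured on 20 Affymetrix arrays, 2 for each of 10 groups, which combine 5 tissues with 2 adaptation states. Laser capture microscopy gave 4 of the tissues: the ganglion cell, inner plexiform and inner nuclear layers, and the photoreceptor layer, that is the outer nuclear layer with the inner and outer segments. Whole retina was the remaining tissue. All mice were C57BL/6 adults of 7 to 8 weeks that carried no transgene or mutation named in the labels. Light-adapted mice had spent 6 h in light at 450 lux and dark-adapted mice 3 h in a dark chamber at no more than 0.4 lux. How many mice stand behind an array was not stated, so the p-values measure the spread between the deposited samples, which may be technical.

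Classical cadherins are transmembrane proteins that bind cadherins on a neighbouring cell in a calcium-dependent way and are tied to actin through catenins. Protocadherins share the extracellular cadherin repeats but not the catenin-binding tail. Contactins, sidekicks and Dscams belong to the immunoglobulin superfamily; the contactins are held in the membrane by a lipid anchor, and sidekicks and Dscams span it. In the vertebrate retina, members of all these groups are known for guiding processes of bipolar, amacrine and ganglion cells to particular sublaminae of the inner plexiform layer, for spacing cells of a type, and for holding photoreceptors together.

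Levels are log2 of the deposited GCRMA intensity, with values under 8 set to 8. A gene was tested when at least 2 of the 20 arrays exceeded a log2 intensity of 5, which 37 of the 44 members and 15057 genes in all did. Of the 37, 20 members exceeded that value in every array and 10 in fewer than 10 arrays. The tested members were 5 of 5 type I cadherins, 9 of 13 type II cadherins, 4 of 5 other cadherins, 10 of 11 protocadherins, 5 of 6 contactins and all 4 sidekicks and Dscams. Not tested were Cdh7, Cdh9, Cdh12, Cdh17, Cdh19, Cntn3 and Pcdh20. Cdh9, known with Cdh8 for sorting bipolar cell axons to different sublaminae, lay between 3.00 and 4.19 in all arrays. Cdh19 was at the floor in 18 of 20 arrays. Cntn3 and Pcdh20 exceeded 5 in 1 array each, with highest values of 5.36 and 5.01, as did Cdh7 with 5.04.

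The arrays had median intensities of 37.5 to 40.8, and replicates correlated at 0.851 to 0.956 over the tested genes. An array's median correlation to arrays of other groups was 0.721 to 0.876. It was lowest in whole retina light-adapted replicate 2 (0.721) and in light-adapted inner plexiform layer replicates 1 and 2 (0.738 and 0.768). Genes of rods and cones were higher in the photoreceptor layer for 16 of 16 listed genes, against 7.26% of all genes. Ganglion cell genes were higher in the ganglion cell layer for 11 of 14, against 1.17%. Bipolar genes were higher in the inner nuclear layer for 5 of 13, against 0.252%. Among them was Trpm1, a channel of ON bipolar cells, higher by 1.54 ± 0.15 (log2 difference ± SE). The inner plexiform layer consists mainly of processes and synapses. There 3 of 11 amacrine, 4 of 13 bipolar and 2 of 12 Müller glia genes were higher, against 8.29% of all genes. In the inner nuclear layer 0 of 11 amacrine genes were called. In 5 light-adapted arrays (replicate 1 of the photoreceptor layer, inner nuclear layer and whole retina, and both of the ganglion cell layer) the median intensity of 30 Y-linked probe sets was 192 to 306, against 8.6 to 25 in the other 15.

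**Figure D1:**
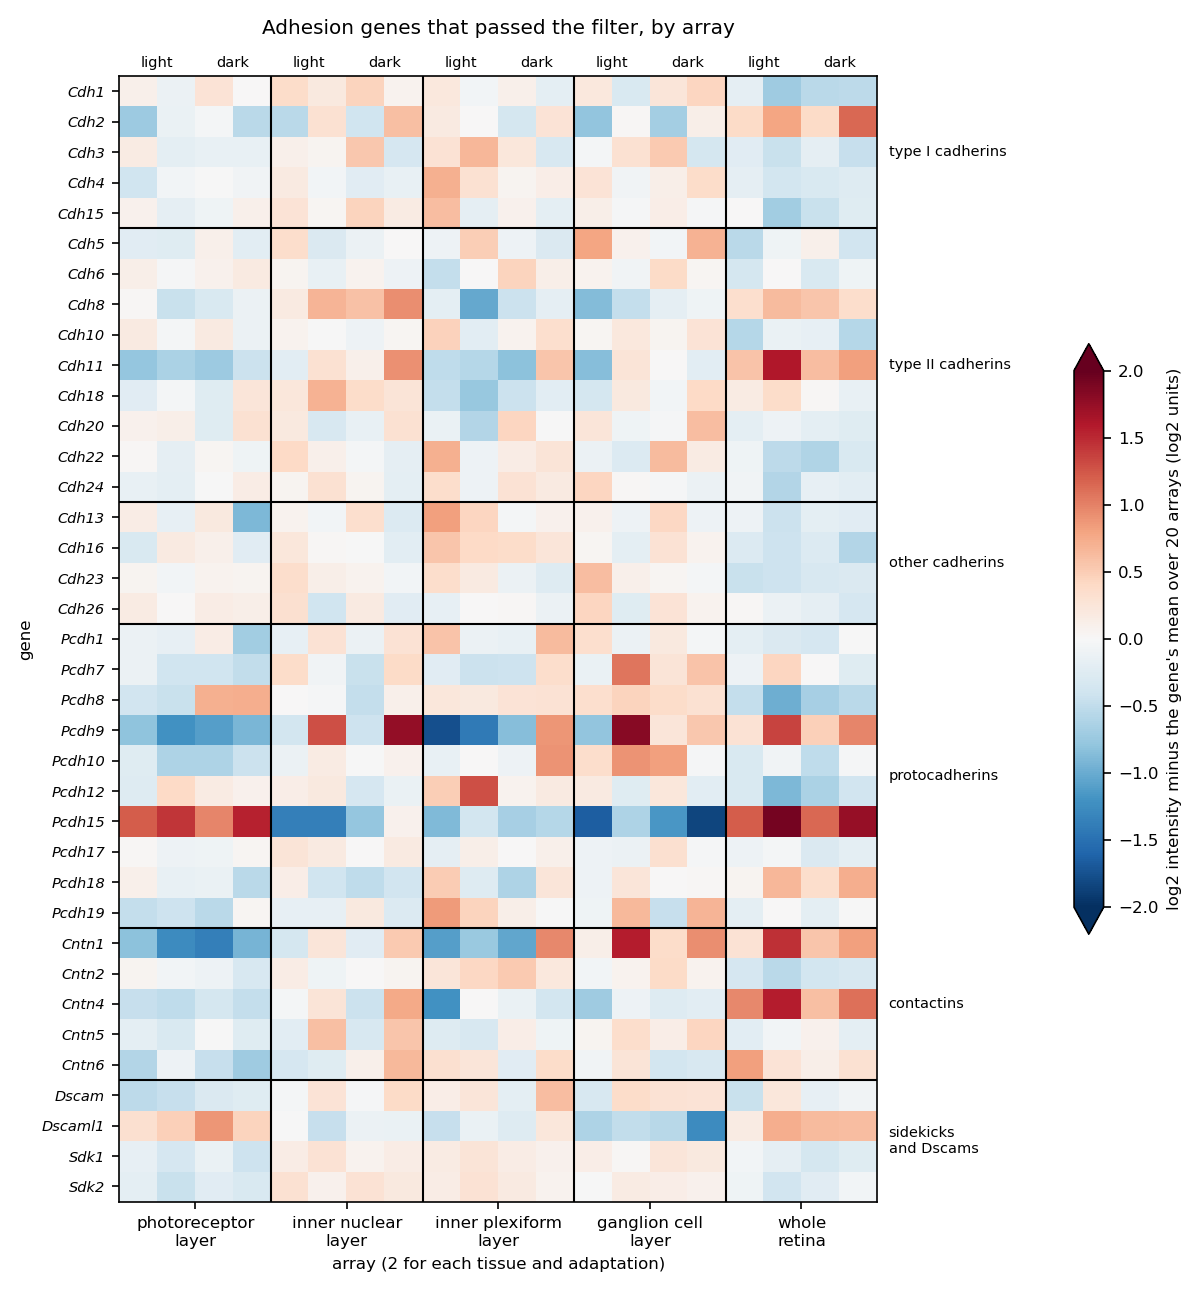
Each row is 1 of the 37 tested genes, grouped by family, and each column 1 of the 20 arrays. Colour gives the log2 intensity minus that gene's mean over the arrays (red higher, blue lower). Pcdh15 stands out in all photoreceptor layer and whole retina arrays.

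For most members no difference between layers passed. A moderated F test among the 4 layers called 7 of the 37 members, Pcdh15, Dscaml1, Cdh8, Cntn1, Cdh18, Sdk2 and Sdk1, at a limma Benjamini-Hochberg adjusted p under 0.05. The share over all tested genes was 16.5%, close to the members' 18.9%. Between layers taken in pairs, calls were made for 4 of 37 members between the photoreceptor and inner nuclear layers (5.33% of all genes), 9 between the photoreceptor and inner plexiform layers (21.4%) and 4 between the photoreceptor and ganglion cell layers (7.66%). The inner nuclear layer differed from the inner plexiform layer in 2 members (4.85%) and from the ganglion cell layer in 1 (0.458%). The members' range over all arrays ran from 0.62 log2 units for Pcdh17 to 3.75 for Pcdh15.

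The photoreceptor layer was the layer with the most calls. Against the mean of the other 3 layers, Pcdh15 and Dscaml1 were higher, and Sdk1, Sdk2, Dscam, Cntn1 and Pcdh10 were lower. These 7 of 37 members compare with 12.9% of all genes; by direction, 2 were higher against 7.26% of all genes and 5 were lower against 5.69%. The median difference was -0.22 over the members and -0.06 over all genes. Below 0 lay 32 of the 37 members and also most of all genes, whose exact share was not counted. In microdissected tissue, fewer cells of a type and less RNA per cell cannot be told apart.

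Pcdh15 encodes a protocadherin that forms the tip link of inner ear hair cells together with Cdh23, is mutated in Usher syndrome, and is found in photoreceptors. Its promoter, 250 bases before to 50 after the start of the RefSeq gene, is shown as the member with the widest range. It lies at chr10:73821617-73821916 of GRCm38.p6 on the plus strand and holds 8 CG pairs; capitals mark its only match to TATAAA, the TATA box letters, searched on both strands.
Pcdh15 promoter: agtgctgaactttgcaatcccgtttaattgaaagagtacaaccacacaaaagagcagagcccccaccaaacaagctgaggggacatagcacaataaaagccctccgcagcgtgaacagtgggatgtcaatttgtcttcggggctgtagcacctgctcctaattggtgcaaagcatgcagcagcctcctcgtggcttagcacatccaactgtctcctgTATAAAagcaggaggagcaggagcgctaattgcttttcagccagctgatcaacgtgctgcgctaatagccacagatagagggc
TATAAA stood in 13.6% of 32851 mouse promoters of this length, and in 3 of the 38 promoters listed for 31 members, those of Cntn1, Pcdh15 and Pcdh8.

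In the photoreceptor layer the Pcdh15 level was 8.25 and 8.46 in the light-adapted arrays and 8.01 and 8.56 in the dark-adapted ones. The whole retina arrays read 8.24, 8.94, 8.19 and 8.77, in the same order of light and dark. Levels in the inner nuclear layer were 5.66, 5.67, 6.26 and 7.12, those in the inner plexiform layer 6.16, 6.67, 6.38 and 6.47, and those in the ganglion cell layer 5.39, 6.41, 5.87 and 5.19. Every photoreceptor layer array was thus above all 12 arrays of the other layers. As deposited intensities these were 257.6 to 378.7 in the photoreceptor layer, against a highest value of 139 elsewhere among the layers.

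Pcdh15 was higher in the photoreceptor layer by 2.22 ± 0.21 log2 units (limma adjusted p = 1.9e-06), by 2.36 within light-adapted and 2.07 within dark-adapted arrays. It also exceeded each other layer singly, by 2.14 over the inner nuclear, 1.91 over the inner plexiform and 2.61 over the ganglion cell layer. The ganglion cell layer had the lowest mean, 1.26 ± 0.21 below the other layers (limma adjusted p = 0.0037), a call that ended without dark-adapted ganglion cell layer replicate 2 (-1.09, adjusted p = 0.067). Over the same arrays, the mean log2 level of the 16 rod and cone genes was 8.66 ± 0.13 in the photoreceptor layer (SD, n = 4) and 8.26 ± 0.21 in the whole retina. It was 5.97 ± 0.48 in the inner nuclear and 5.86 ± 0.64 in the ganglion cell layer. The inner nuclear layer arrays with the higher Pcdh15 levels, dark-adapted 1 and 2, had the higher rod and cone means, 6.12 and 6.58 against 5.55 and 5.63, and so had light-adapted ganglion cell layer replicate 2 with 6.75; the part of this in the Pcdh15 values was not tested.

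The array carries another probe set for Pcdh15, not used as it has the lower mean, and it gave a different picture. Its photoreceptor layer values, 6.04, 6.06, 6.07 and 5.88, lay among those of the other layers, with a difference of -0.32 ± 0.16 (limma adjusted p = 0.20 over probe sets). Its highest values were 7.51 and 7.25 in the light-adapted inner plexiform layer, and the dark-adapted arrays of that layer read 6.88 and 6.02. Over both adaptations, the inner plexiform layer differed from the other layers by 0.88 ± 0.16 (adjusted p = 0.0023). In the whole retina this other probe set was lower, by 0.73 ± 0.15 (adjusted p = 0.0015), where the used probe set was higher by 1.88. The mean of both probe sets gave a photoreceptor layer difference of 0.95 (limma adjusted p = 0.00017) and a whole retina difference of 0.57 (adjusted p = 0.0027). By construction these differences lie midway between those of the 2 probe sets, so they are no separate support for either.

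**Figure D2:**
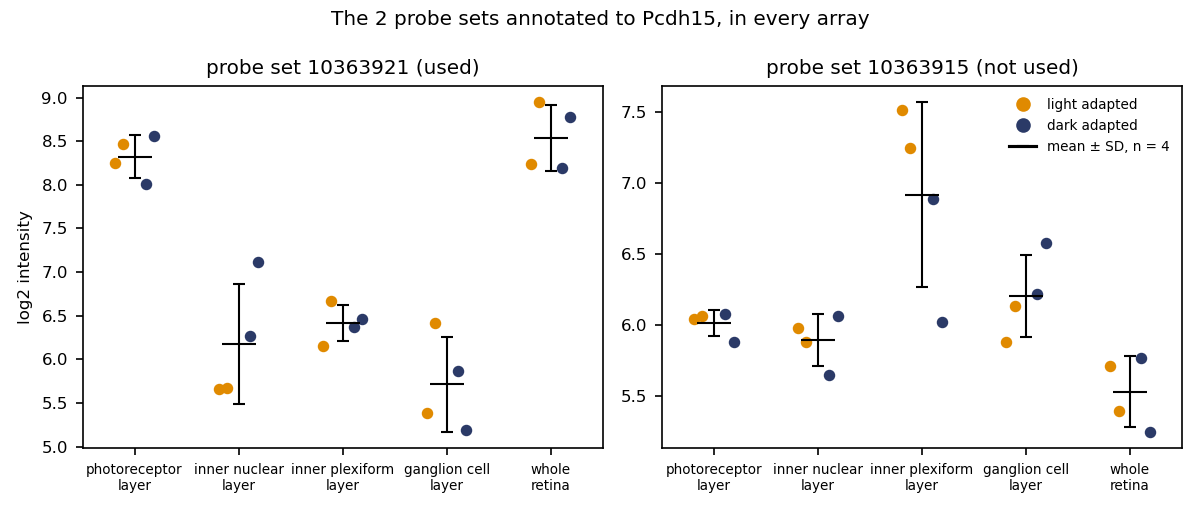
Points are the log2 intensities of the 2 probe sets annotated to Pcdh15 in each array, orange for light and blue for dark adaptation, with mean and SD (n = 4) as bars; the vertical scales differ. The used probe set is high in the photoreceptor layer and the whole retina, and the other is highest in the light-adapted inner plexiform layer.

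Dscaml1, a homophilic adhesion molecule that in mouse retina is known from rods and the rod pathway, was the other member higher in the photoreceptor layer. There it measured 7.28 and 7.43 in light and 7.83 and 7.40 in dark, against 5.70 to 7.17 in the other 12 layer arrays, with no overlap. The difference was 0.89 ± 0.15 (limma adjusted p = 9.1e-04), and it was 0.76 within light and 1.01 within dark. Singly, the photoreceptor layer was above the inner nuclear layer by 0.71, the inner plexiform layer by 0.69 and the ganglion cell layer by 1.26. Calls for the photoreceptor layer held in all 30 alternative settings for Pcdh15 and Dscaml1 alike. None of these settings used the other Pcdh15 probe set alone. Ganglion cell layer levels of Dscaml1 were the lowest, 6.34, 6.46, 6.40 and 5.70, all below every other layer array. That difference, -0.79 ± 0.15 (adjusted p = 0.011), became -0.62 (adjusted p = 0.15) without dark-adapted replicate 2, the array at 5.70, and -0.94 (adjusted p = 0.094) without the 5 arrays with Y-linked signal.

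Its relative Dscam, known in mouse for self-avoidance and the spacing of amacrine and ganglion cells, went the other way in the photoreceptor layer. Dscam measured 5.86, 5.92, 6.09 and 6.15 there and 6.06 to 7.00 in the other layers, so that the arrays overlapped narrowly. It was lower by 0.54 ± 0.17 (limma adjusted p = 0.038). This call lay near the threshold: 13 of 29 settings gave an adjusted p above 0.05, within a range of 0.0072 to 0.13. The difference was -0.60 (adjusted p = 0.074) when the 5 arrays with Y-linked signal were left out.

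Both sidekicks, which bind their own kind across synapses and are known for matching amacrine and ganglion cell arbors, were lower in the photoreceptor layer. Sdk1 measured 7.10, 6.94, 7.14 and 6.86 there, and 7.29 to 7.56 in the other 12 layer arrays. Sdk2 measured 6.25, 6.00, 6.23 and 6.15 against 6.45 to 6.75. Neither gene's photoreceptor layer arrays overlapped those of the other layers, and the means of the 3 remaining layers were 7.43, 7.43 and 7.42 for Sdk1 and 6.67, 6.62 and 6.55 for Sdk2. The differences were small, -0.42 ± 0.10 for Sdk1 (limma adjusted p = 0.0098) and -0.46 ± 0.11 for Sdk2 (adjusted p = 0.0097), and nearly equal within light (-0.42 and -0.49) and dark (-0.42 and -0.42). Without photoreceptor layer replicate 2 of light or of dark adaptation the adjusted p rose to 0.074 and 0.093 for Sdk1 and to 0.082 and 0.060 for Sdk2.

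The promoters of the sidekicks are shown as a pair with the same pattern, at chr5:141241284-141241583 on the plus strand for Sdk1 and chr11:114066980-114067279 on the minus strand for Sdk2 (GRCm38.p6). Capitals mark GGGCGG, the GC box letters, or its reverse complement CCGCCC.
Sdk1 promoter: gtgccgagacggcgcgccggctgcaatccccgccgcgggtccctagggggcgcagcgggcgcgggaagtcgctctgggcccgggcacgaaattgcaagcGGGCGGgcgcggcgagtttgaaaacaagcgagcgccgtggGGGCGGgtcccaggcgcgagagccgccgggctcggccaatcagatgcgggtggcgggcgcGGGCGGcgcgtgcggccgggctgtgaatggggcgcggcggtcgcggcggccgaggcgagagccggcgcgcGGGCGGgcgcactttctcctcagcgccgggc
Sdk2 promoter: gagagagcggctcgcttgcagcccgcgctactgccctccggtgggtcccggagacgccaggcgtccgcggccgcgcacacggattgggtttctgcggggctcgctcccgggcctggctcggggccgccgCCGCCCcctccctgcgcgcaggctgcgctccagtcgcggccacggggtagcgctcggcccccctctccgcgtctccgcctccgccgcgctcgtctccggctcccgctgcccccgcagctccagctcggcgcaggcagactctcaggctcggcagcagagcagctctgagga
The GC content was 78.3% with 54 CG pairs for Sdk1 and 76.7% with 41 for Sdk2, against a median of 52.7% and 7 over all promoters and 59.8% and 12.5 over those of the members. The Sdk1 window held 4 GC box matches and the Sdk2 window 1. Such a match stood in 35.7% of all promoters and in 13 of 38 promoters of members.

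**Figure D3:**
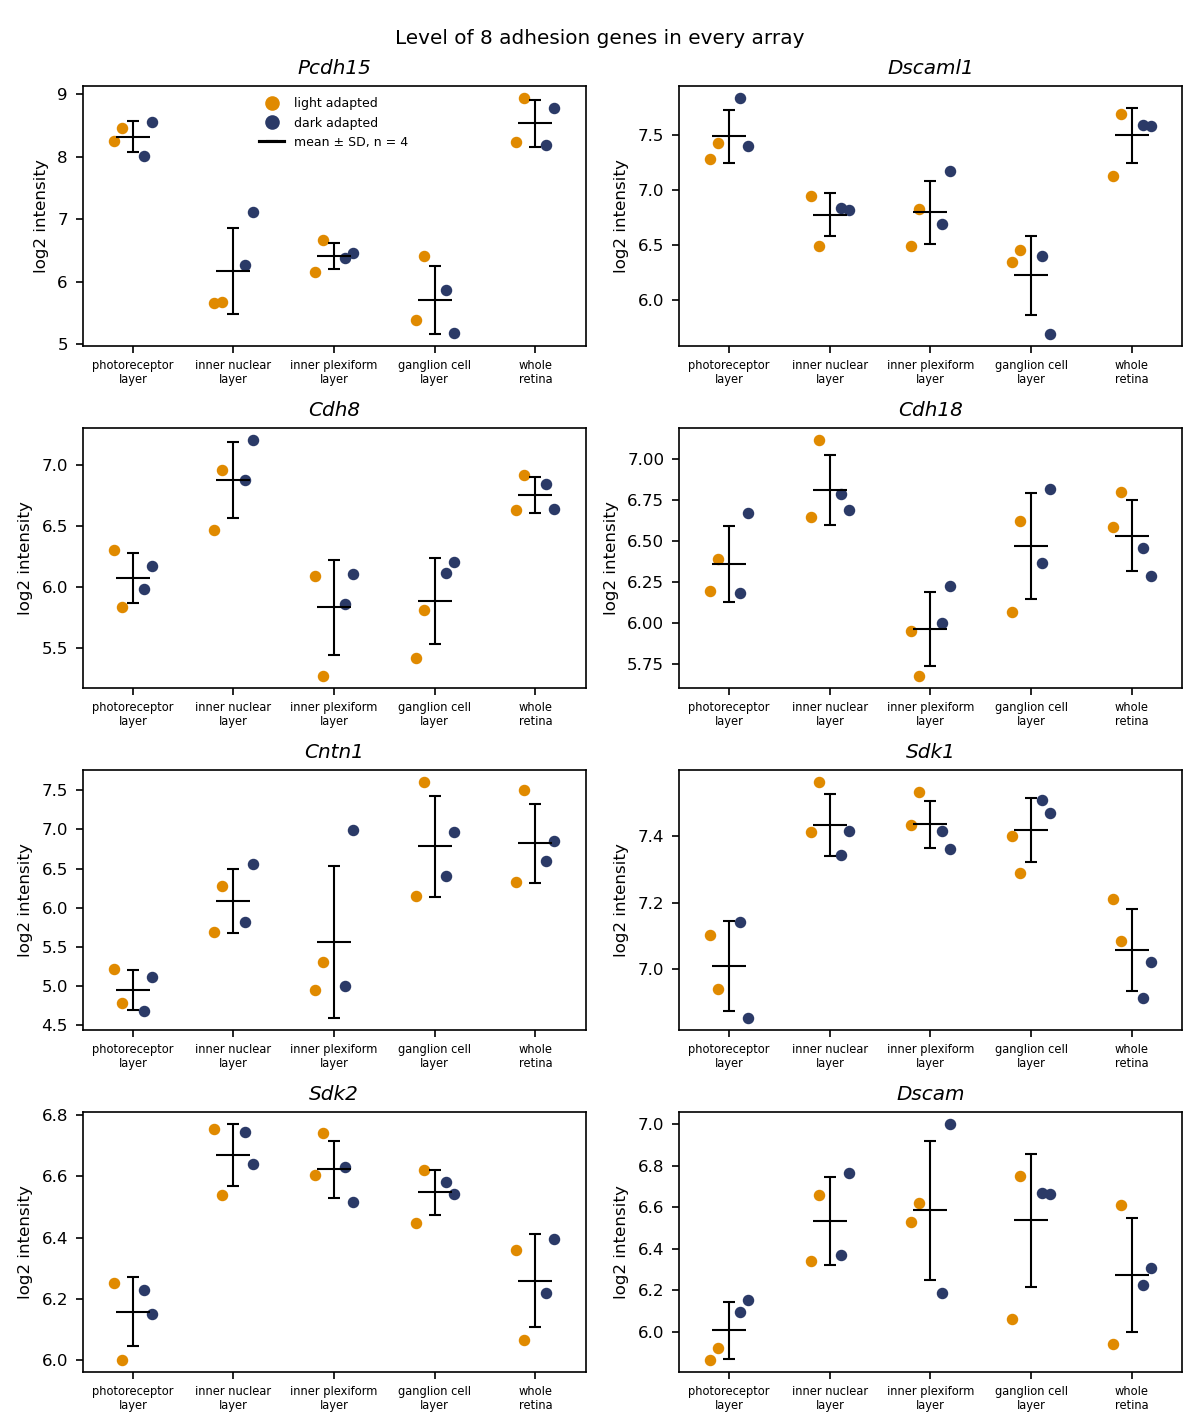
Points give the log2 intensity of 8 genes in every array, by tissue and by adaptation (orange light, blue dark), with the mean and SD of 4 arrays as bars; each panel has its own vertical scale. Pcdh15 and Dscaml1 are highest in the photoreceptor layer and the whole retina, Cdh8 in the inner nuclear layer and the whole retina, and Sdk1 and Sdk2 are low in the photoreceptor layer.

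Contactin 1, an axonal and glial surface protein, had its lowest levels in the photoreceptor layer and its highest in the ganglion cell layer. Cntn1 measured 5.21, 4.78, 4.67 and 5.11 in the photoreceptor layer and 6.15, 7.61, 6.40 and 6.96 in the ganglion cell layer, which do not overlap. The inner nuclear layer lay between them at 5.68 to 6.56. In the inner plexiform layer 3 arrays read 4.94 to 5.30 and dark-adapted replicate 2 read 7.00. The photoreceptor layer was lower by 1.20 ± 0.32 (limma adjusted p = 0.018), and lower than the ganglion cell layer alone by 1.84 ± 0.39 (adjusted p = 0.0058). The ganglion cell layer against the other 3 layers, 1.25 ± 0.32, did not pass (adjusted p = 0.054). Without photoreceptor layer light-adapted replicate 2, dark-adapted replicate 1 or dark-adapted replicate 2 the adjusted p of the photoreceptor layer difference was 0.10, 0.099 and 0.052. Replicate 2 read higher than replicate 1 in 9 of 10 groups for Cntn1, by 0.72 on average.

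The other contactins passed no comparison of a layer with the other 3. Cntn2, an axonal contactin also called TAG-1, averaged 6.48 in the photoreceptor and 6.93 in the inner plexiform layer, and this pair differed by -0.45 ± 0.14 (limma adjusted p = 0.028). Cntn6 averaged 4.04 and 4.68 in the same layers, a difference of -0.65 ± 0.22 (adjusted p = 0.043), but exceeded 5 in 2 arrays only. Cntn5, known from starburst amacrine and direction-selective ganglion cells, ranged from 4.13 to 5.05 and also exceeded 5 in 2 arrays, inner nuclear layer replicate 2 of both adaptations.

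Among the protocadherins, Pcdh10 was the remaining call in the photoreceptor layer. It measured 4.35, 3.98, 3.98 and 4.16 there and 4.45 to 5.49 in the other layers, a difference of -0.71 ± 0.21 (limma adjusted p = 0.029). Pcdh10 exceeded 5 in 3 arrays, 2 of the ganglion cell layer and 1 of the inner plexiform layer, so it entered the test through layers in which it is higher. Leaving out any of the 4 photoreceptor layer arrays gave adjusted p-values of 0.057 to 0.16, and leaving out the 5 arrays with Y-linked signal gave 0.11. Pcdh9, expressed by many neurons, scattered widely: it measured 5.02 to 5.43 in the photoreceptor layer, 4.48 to 7.13 in the inner plexiform, 5.82 to 7.99 in the inner nuclear and 5.45 to 8.06 in the ganglion cell layer. Both light-adapted inner plexiform layer arrays, at 4.48 and 4.82, lay below all 4 photoreceptor layer arrays. Its difference of -1.09 ± 0.45 did not pass (adjusted p = 0.13 over probe sets), while its second probe set gave -1.49 ± 0.41 (adjusted p = 0.022). Replicate 2 was the higher one in 9 of 10 groups for Pcdh9, by 1.01 on average. At the other end, Pcdh17 stayed within 6.83 and 7.44 in all arrays.

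The inner nuclear layer, where the somata of bipolar and other interneurons and of Müller glia lie, had 1 call among the 37 members, Cdh8. The share over all genes was 0.611%. Cdh8 is a type II cadherin known from OFF bipolar cells, where it directs axons to their sublamina. Its promoter is shown for that call. It lies at chr8:99416422-99416721 on the minus strand (GRCm38.p6), has a GC content of 62.3% with 21 CG pairs, and holds 1 GC box match, in capitals.
Cdh8 promoter: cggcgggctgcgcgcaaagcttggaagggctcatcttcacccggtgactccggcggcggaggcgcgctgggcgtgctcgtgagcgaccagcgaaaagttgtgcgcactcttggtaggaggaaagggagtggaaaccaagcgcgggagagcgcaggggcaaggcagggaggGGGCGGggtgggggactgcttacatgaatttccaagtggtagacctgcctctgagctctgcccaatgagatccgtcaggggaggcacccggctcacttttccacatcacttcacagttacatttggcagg
The Cdh8 level in the inner nuclear layer was 6.46 and 6.96 in light and 6.87 and 7.21 in dark. The 12 arrays of the other layers lay between 5.27 and 6.30, so all inner nuclear layer arrays were above them. The whole retina read 6.62, 6.92, 6.84 and 6.63, within the inner nuclear layer's range.

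Cdh8 was higher in the inner nuclear layer by 0.95 ± 0.16 (limma adjusted p = 0.011), with 0.93 within light and 0.97 within dark. It exceeded the inner plexiform layer by 1.05 (adjusted p = 0.0076) and the ganglion cell layer by 0.99 (adjusted p = 0.028), and photoreceptor minus inner nuclear layer was -0.81 (adjusted p = 0.020). Means in those 3 layers were 6.07 ± 0.21, 5.83 ± 0.39 and 5.88 ± 0.35 (SD, n = 4), and no pair among them passed. The call ended without inner nuclear layer light-adapted replicate 2 (0.82, adjusted p = 0.11), without dark-adapted replicate 2 (0.86, adjusted p = 0.060) and without the 5 arrays with Y-linked signal (1.02, adjusted p = 0.10). Over the same arrays the 13 bipolar genes averaged 6.58 ± 0.37 (SD, n = 4) in the inner nuclear layer and 6.17 ± 0.28 in the inner plexiform layer, against 5.76 ± 0.11 in the photoreceptor and 5.68 ± 0.07 in the ganglion cell layer; their part in the Cdh8 difference was not tested.

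Cdh18, another type II cadherin of neurons, had its highest layer mean in the inner nuclear layer too. It measured 6.65, 7.12, 6.79 and 6.69 there, 6.18 to 6.67 in the photoreceptor, 5.68 to 6.22 in the inner plexiform and 6.07 to 6.82 in the ganglion cell layer. Against the other 3 layers the inner nuclear layer difference of 0.55 ± 0.14 did not pass (limma adjusted p = 0.12). The inner plexiform layer was lower, by 0.59 ± 0.14 (adjusted p = 0.014), and lay 0.85 ± 0.18 below the inner nuclear layer alone (adjusted p = 0.013). The inner plexiform layer call was lost without its light-adapted replicate 2 (adjusted p = 0.056), its dark-adapted replicate 1 (0.073) or both light-adapted arrays (-0.44, adjusted p = 0.38). A second Cdh18 probe set gave -0.28 there (adjusted p = 0.30).

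In the inner plexiform layer, Cdh18 and Cdh16 were the 2 members called of 37, against 13.6% of all genes. Cdh16, an atypical cadherin best known from kidney, measured 6.80, 6.64, 6.61 and 6.49 there and 5.95 to 6.54 in the other layers. The difference of 0.39 ± 0.13 had a limma adjusted p of 0.049, and in 19 of 29 settings it was above 0.05. Without both light-adapted inner plexiform layer arrays the difference was 0.30 (adjusted p = 0.50). Without the 5 arrays with Y-linked signal it was 0.32. Of the type I cadherins, Cdh4, known as the retinal cadherin, averaged 7.48 ± 0.29 in the inner plexiform and 7.05 ± 0.18 in the photoreceptor layer, and the photoreceptor minus inner plexiform difference was -0.44 ± 0.14 (limma adjusted p = 0.038). The remaining layer means of Cdh4 were 7.12 and 7.35. Against the mean of the other 3 layers, Cdh4 in the inner plexiform layer differed by 0.53 within light (adjusted p = 0.039) and by 0.09 within dark (adjusted p = 0.89). Cdh4, like the other members, passed no test of dark against light or of a dark effect that differed between tissues. Its light-adapted means were 7.69 in the inner plexiform and 6.95 in the photoreceptor layer, and its dark-adapted means were 7.28 and 7.14. The ganglion cell layer's 2 calls of 37, both lower, were Pcdh15 and Dscaml1, against 1.87% of all genes and 0.704% for the lower direction.

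**Figure D4:**
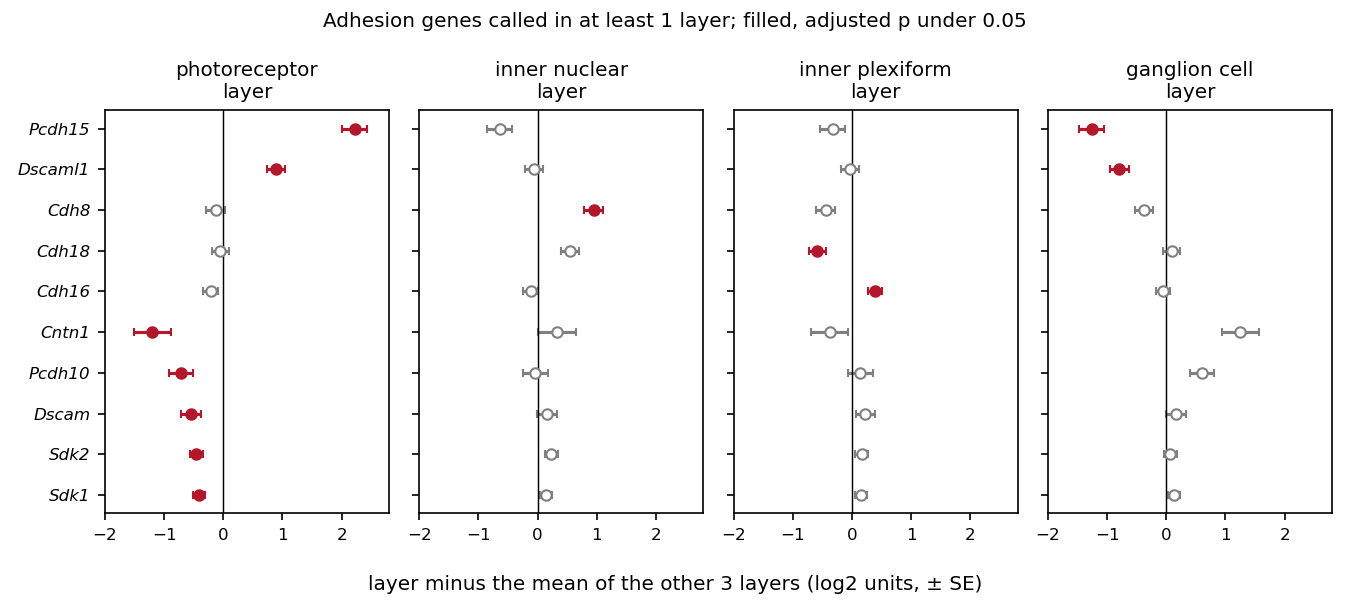
For the 10 genes called in at least 1 layer, each panel gives 1 layer minus the mean of the other 3 in log2 units, with the standard error of the fit as bars; filled red points have an adjusted p under 0.05. Pcdh15 reaches 2.22 in the photoreceptor layer, Cdh8 0.95 in the inner nuclear layer, and 5 genes are called below 0 in the photoreceptor layer.

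Further cadherins are given as a description. Of 5 type I cadherins tested, 0 were called in any layer against the other 3. The shares over all genes were 12.9%, 0.611%, 13.6% and 1.87% for the photoreceptor, inner nuclear, inner plexiform and ganglion cell layers. At these shares 0 of 5 does not set the family apart. N-cadherin (Cdh2) joins photoreceptors to Müller cells at the outer limiting membrane. It measured 5.52 to 6.21 in the photoreceptor layer and 5.70 to 6.84 in the inner nuclear layer. Cdh5, the cadherin of vascular endothelium, lay between 5.28 and 6.13 in the ganglion cell layer and between 5.04 and 5.83 in the other layers. Cdh23, the partner of Pcdh15 in hair cells, stayed between 4.60 and 5.49 in all layers and exceeded 5 in 4 arrays.

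Whole retina was also compared with the mean of the 4 layers. Of the 37 members, 21 were called, 9 higher and 12 lower, against 48.5% of all genes (19.9% higher and 28.6% lower). The median difference was -0.23 over members and -0.18 over all genes. This share was near the background, and the members are given as a description.

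Higher in the whole retina were Pcdh15 (1.88 ± 0.20), Cntn4, Cdh11, Cntn1 (0.98 ± 0.31), Cdh2, Dscaml1 (0.67 ± 0.15), Cdh8 (0.59 ± 0.15), Pcdh18 and Cntn6. Cntn4, an axonal contactin, read 6.11 and 6.72 in light and 5.76 and 6.26 in dark, against 3.95 to 5.91 in the layers with a median of 4.85; the difference was 1.32 ± 0.22 (limma adjusted p = 2.4e-04). Cdh11, known from mesenchymal and glial cells, read 6.53, 7.56, 6.57 and 6.78 against a layer median of 5.63 (5.11 to 6.88), a difference of 1.13 ± 0.24 (adjusted p = 0.0015). Its neighbour on the chromosome is Cdh8, as Cntn6 is that of Cntn4. For Cdh2 the values were 6.62, 7.03, 6.63 and 7.39 against a median of 6.16, and for Pcdh18 4.96, 5.57, 5.27 and 5.63 against 4.79. Cntn6 read 5.33, 4.78, 4.62 and 4.81 against 4.34. Each of these 5 overlapped the range of the layer arrays. Cntn6 exceeded 5 in 2 arrays only, whole retina light-adapted replicate 1 and inner nuclear layer dark-adapted replicate 2. It thus passed the filter only with an array of the whole retina, the tissue in which it was called higher. The list of Müller glia genes averaged 6.94 ± 0.11 in the whole retina and 5.87 ± 0.04 to 6.86 ± 0.32 in the layers; its part in these differences was not tested.

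The members lower in the whole retina were led by Pcdh8, a synaptic protocadherin that controls N-cadherin uptake. It read 4.43, 3.92, 4.23 and 4.35, against 4.42 to 5.63 in the layers, and was lower by 0.83 ± 0.14 (limma adjusted p = 2.3e-04). Pcdh12, of vascular endothelium, read 5.45, 4.84, 5.12 and 5.36 against 5.41 to 7.04 (-0.69 ± 0.16, adjusted p = 0.0031). The epithelial cadherin Cdh1 read 4.67, 4.13, 4.31 and 4.32 against a median of 4.99 (-0.61 ± 0.15, adjusted p = 0.0045). Cdh23 read 4.43, 4.45, 4.54 and 4.57 against 4.60 to 5.49 in the layers (-0.46 ± 0.13). Pcdh8, Cdh1, Cdh23 and Cdh10 exceeded 5 in 10, 8, 4 and 3 arrays, all of them layer arrays, so these 4 entered the test through groups in which they are higher. The other 8, Cntn2, Cdh16, Cdh22, Cdh10, Cdh15, Cdh4, Cdh24 and Sdk1, were lower by 0.49 to 0.26 in that order. Whole retina means were 6.20 for Cntn2, 5.86 for Cdh16, 5.44 for Cdh22, 4.41 for Cdh10, 5.93 for Cdh15, 6.91 for Cdh4, 6.67 for Cdh24 and 7.06 for Sdk1. Centring every array on its median ended the calls of Cdh10, Cdh24 and Sdk1, and quantile normalisation that of Cdh10. For Cdh24 the mean of its probe sets gave -0.17 (limma adjusted p = 0.22), and its second probe set gave -0.01 (adjusted p = 0.95 over probe sets).

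Of the 21 whole retina calls, those of Pcdh15, Cntn4, Cdh11, Dscaml1, Cdh8, Pcdh8, Pcdh12, Cntn2 and Cdh16 held in every setting that tested them. For Pcdh15 no setting used its other probe set alone, which was lower in the whole retina. Those of Cdh23 (adjusted p = 0.074), Cdh10 (0.20), Cntn6 (0.18) and Sdk1 (0.068) ended without the 5 arrays with Y-linked signal. Leaving out whole retina light-adapted replicate 2 ended the call of Cdh1 (highest adjusted p = 0.054), and leaving out that array or dark-adapted replicate 2 those of Cdh2 (0.069), Cntn1 (0.15) and Pcdh18 (0.17). Cdh22 (0.12) was lost without light-adapted replicate 2 or dark-adapted replicate 1, and Cdh15 (0.25), Cdh4 (0.11) and Sdk1 (0.14) without any of these 3 arrays. Cdh10 (0.15) was lost without light-adapted replicate 1 or dark-adapted replicate 2, Cntn6 (0.16) without either of these or dark-adapted replicate 1, and Cdh24 (0.30) without any of 12 single arrays.

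Dark and light adaptation gave no call among the members. All 5 arrays with Y-linked signal were light-adapted, among them both of the ganglion cell layer. In that layer adaptation and Y-linked signal cannot be told apart. In the photoreceptor layer, inner nuclear layer and whole retina they overlap in part. Averaged over the 5 tissues, 0 of 37 passed against 0.0133% of all genes, and 0 of 37 had an unadjusted limma p under 0.05, against 6.11% of all genes. Within tissues 0 of 37 passed as well, against 0.0465% of all genes for photoreceptors, 0% for the inner nuclear, 1.83% for the inner plexiform, 0.00664% for the ganglion cell layer and 0.0266% for whole retina. At an unadjusted limma p under 0.05 the counts in that order were 1 member (1.49% of all genes), 2 members (3.14%), 2 members (18.7%), 1 member (4.08%) and 0 members (0.897%). The median dark minus light difference of the members was 0.01. No difference between tissues in the dark effect passed either (0 of 37, against 0.0266% of all genes); at an unadjusted p under 0.05 there was 1 member, Pcdh8, against 5.9% of all genes.

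Pcdh8 had the largest dark minus light difference in the photoreceptor layer. It read 4.52 and 4.45 in the light-adapted and 5.61 and 5.63 in the dark-adapted arrays, so the pairs lay apart, by 1.13 ± 0.25 (limma unadjusted p = 2.5e-04, adjusted p = 0.31, with a range of 0.16 to 1 over the alternatives). Elsewhere the Pcdh8 difference was -0.18 (inner nuclear layer), 0.07 (inner plexiform layer), -0.05 (ganglion cell layer) and 0.12 (whole retina). The test of whether its dark effect differed between tissues gave an adjusted p of 0.73. The smallest p-values of the averaged comparison belonged to Pcdh8 (0.22 ± 0.11, adjusted p = 0.83), Cdh8 (0.23 ± 0.12, adjusted p = 0.83) and Cdh23 (-0.17 ± 0.10, adjusted p = 0.86). For Cdh8 dark minus light was 0.33 in the inner nuclear layer and 0.54 in the ganglion cell layer, neither of which passed.

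**Figure D5:**
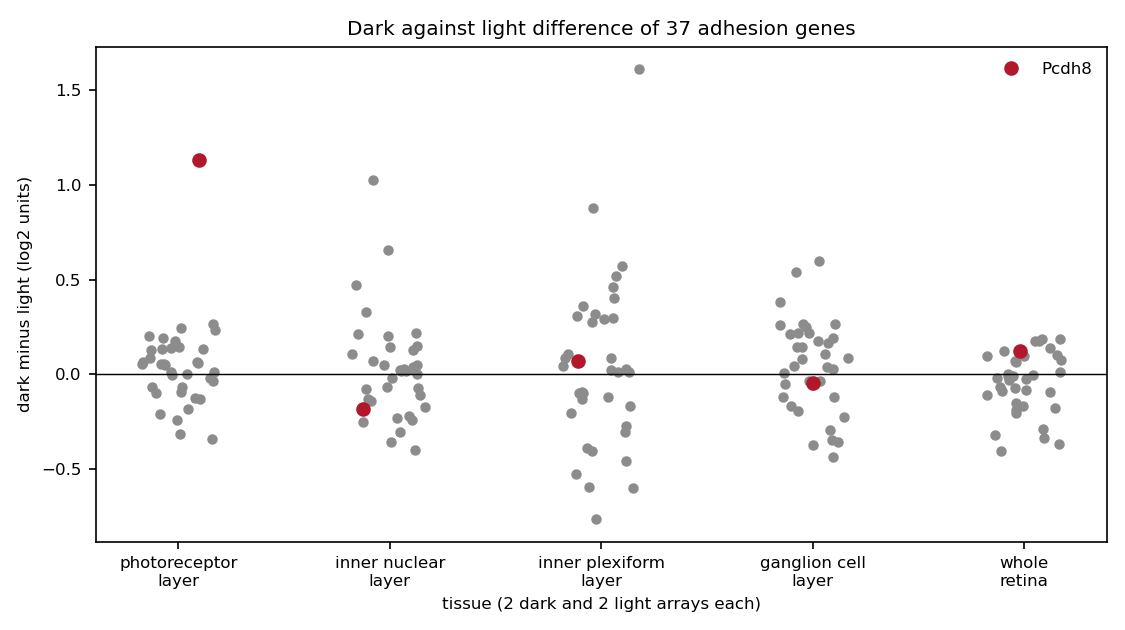
Each point is 1 of the 37 genes, placed at its dark minus light difference in log2 units (2 arrays against 2) in each of the 5 tissues; Pcdh8 is red. Pcdh8 in the photoreceptor layer, at 1.13, stands above the other members there, and no point passes the adjusted threshold.

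Other adhesion genes, taken from lists of related families, were measured on the same arrays. Cdhr1, the photoreceptor cadherin of the outer segment base, was higher in the photoreceptor layer by 2.27 ± 0.17 (limma adjusted p = 1e-07). Of 18 tested genes of the other cadherin superfamily, 2 were higher there, Cdhr1 and the calsyntenin Clstn1 (0.80 ± 0.13), and 2 lower, Ret (-0.63 ± 0.12) and Fat4 (-0.59 ± 0.13), against 7.26% of all genes higher and 5.69% lower in that layer. Fat4 was higher in the inner nuclear layer (0.76 ± 0.13). Among 13 catenins and cadherin partners, Ctnna1, which links catenins to actin, was higher in the photoreceptor layer (0.52 ± 0.15), and Ctnnd2 (-0.82 ± 0.19) and Pkp3 (-0.38 ± 0.11) were lower, against the same background. No clustered protocadherin was called in a layer, of 11 tested among 22 on the array, and 4 were higher in the whole retina, where 19.9% of all genes were, Pcdhb18 by 1.66 ± 0.23, Pcdhb16 by 1.25 ± 0.30, Pcdhb20 by 1.19 ± 0.21 and Pcdhb22 by 0.94 ± 0.20; these are similar copies whose probes can share signal, so their values are uncertain.

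Of 39 other immunoglobulin adhesion genes, 2 were higher and 7 lower in the photoreceptor layer, against 7.26% and 5.69% of all genes. Jam2, a junctional adhesion molecule, was higher by 1.28 ± 0.17 (limma adjusted p = 7.3e-05). Lsamp (-0.79 ± 0.15), the contactin partner Cntnap1 (-0.86 ± 0.19) and L1cam (-0.56 ± 0.13) were lower. L1cam (0.72 ± 0.13) and Lsamp (0.69 ± 0.15) were the 2 higher in the ganglion cell layer, against 1.17% of all genes. Over these 39 genes the median photoreceptor layer difference was -0.16, against -0.06 over all genes.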

How the data were processed

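Per the labels, RNA was labelled with biotin in 2 cycles and hybridised to 1 array per sample. The authors deposited GCRMA values (per the submitters' processing notes, version not given) as 1 intensity per probe set and array, linear as read from the values. Intensities under 8 (11.3% to 14.1% of an array) were set to 8 and log2 was taken. Of 35557 probe sets, 21789 had 1 symbol, 1621 several and 12147 none listed; 16444 passed the filter. A gene is its probe set with the highest mean. Probe set positions are not given, since no source names their build; promoters are from RefSeq.

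A single limma fit (limma 3.58.1, R 4.3.3) held a mean for each of 10 groups, with 10 residual degrees of freedom and an intensity trend. Tests were two-sided, adjusted by Benjamini-Hochberg over 15057 genes within a comparison (threshold 0.05); the scripts were tested on simulated data. Differences carry the standard error of the fit and levels the SD over arrays; the number of arrays limits the precision. Values are given for Cdh8, members called among layers or in the whole retina (up to 25), the 3 smallest p-values of the averaged dark comparison and up to 4 genes of each other list; Pcdh9, Pcdh17, Cdh5, Cntn5 and untested members were added after their values were seen. Members and lists were chosen with earlier results of these data known. Alternatives were other normalisations, filters, an added 16, probe set means, no trend, a replicate block and leaving out arrays.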

Additional observations from a re-analysis of the deposited data

Results flagged for a closer look

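In 125 sets of 4 arrays (a gene in a tissue), 4 had an array whose gap to its nearest neighbour exceeded Dixon's 95% limit, fewer than the 1 in 20 that chance gives. Dscaml1 in the ganglion cell layer was at 5.695 in dark-adapted replicate 2, with the nearest array at 6.343; the lower call in that layer ends without it. Pcdh10 in the inner plexiform layer was at 5.492 in dark-adapted replicate 2, with the nearest at 4.609. Cdh4 in the photoreceptor layer was at 6.785 in light-adapted replicate 1, against 7.116. Dscam in the ganglion cell layer was at 6.06 in light-adapted replicate 1, against 6.665.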

How the results depend on the processing

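No named result of a member changed direction in the settings tried. None of them used the other Pcdh15 probe set alone, which gave -0.32 in the photoreceptor layer and -0.73 in the whole retina. The photoreceptor layer count of 7 members became 4 with a filter at log2 7 and 2 to 8 with single arrays left out (2 without light-adapted or dark-adapted photoreceptor layer replicate 2, 4 without dark-adapted replicate 1). The inner nuclear layer count of 1 became 0 with that filter, 2 with the replicate block, 0 without the 5 Y-signal arrays and 0 to 1 with single arrays left out. The inner plexiform layer count of 2 became 4 with median centring, with no filter and with the replicate block. It became 1 with quantile normalisation, the filter at log2 7, the mean of probe sets, no intensity trend and without the 5 Y-signal arrays, 0 without its light-adapted arrays, and 0 to 3 with single arrays left out. It was 0 without its dark-adapted replicate 1, and 1 without its light-adapted replicate 2, light-adapted replicate 1 or dark-adapted replicate 2 of the photoreceptor layer, light-adapted 1 or 2 or dark-adapted 2 of the inner nuclear layer, light-adapted 2 of the ganglion cell layer, or any whole retina array. The ganglion cell layer count of 2 became 1 without the 5 Y-signal arrays and 0 to 4 with single arrays left out (4 without light-adapted replicate 1, 0 without dark-adapted replicate 2). The whole retina count of 21 became 8 with the filter at log2 7, which left 10 members tested, and 12 to 23 with single arrays left out (12 without light-adapted or dark-adapted replicate 2). The F test count of 7 became 4 with that filter, 11 with the replicate block, 4 without both light-adapted arrays of the inner plexiform layer, 4 without the 5 Y-signal arrays and 4 to 9 with single arrays left out (4 without light-adapted replicate 2 or dark-adapted replicate 1 of the photoreceptor layer). All counts of dark against light stayed at 0 (0 to 0 with single arrays left out). The causes of these changes were not tested, apart from the smaller number of genes or arrays. Replicate numbers were not taken to pair the samples in the main fit, by a rule that asked every correlation of same-numbered deviations to exceed 0.1. Over 45 pairs of groups 32 did, and all were above 0 (0.0059 to 0.48, median 0.13). Failing this rule does not show that same-numbered arrays are unrelated, and what they share was not tested. The choice matters for the counts given above that changed with the replicate block, such as 11 in place of 7 in the F test. Replicate 2 was the higher in 9 of 10 groups for Pcdh9, Cntn1, Pcdh15 and Dscam and in 1 of 10 for Cdh16, Cdh13 and Cdh26.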
